A study of Mus musculus with 9 samples.

Results

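The comparison described here is E1 against E0 in the mouse dentate gyrus, a hippocampal field built mainly of granule neurons. Its members are all genes whose mean normalized count reached 10 in the authors' deposited table for this comparison, 13103 of the 24015 genes listed, after 27 symbols that a spreadsheet had turned into dates were left out (21 of them reached the minimum). Total RNA was taken from individual C57BL/6 mice aged 8 weeks, with E0, E1 and E4 holding 3 libraries apiece, so 6 libraries enter this comparison. The labels give no genotype other than the strain (the series is named wild type), name no treatment and do not say what the digit after E stands for. As background from the study, E0 mice were not stimulated, and E1 and E4 mice were killed 1 h and 4 h after electroconvulsive stimulation, which makes neurons of the whole brain fire together. Each group is a tissue dissected from intact mice, so its RNA is a mixture of all cells of the dentate gyrus.

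Neurons answer strong firing with waves of transcription. Calcium entry and kinases first switch on immediate early genes, whose induction needs no new protein, and many of these encode transcription factors such as Fos, Egr and Nr4a, which go on to act on later target genes. Others encode proteins that act directly at the synapse, among them Arc and Homer1, and a further set encodes phosphatases and inhibitors that switch the same signals off again.

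The authors' deposited table gives for each gene a mean count over the 6 libraries (reads divided by a size factor for depth, not per length), a log2 fold change, its error as a standard error (SE), a p and an adjusted p, and no value per mouse. A positive fold change is read as higher in E1. The table does not name the order, and this reading rests on Fos, Arc, Npas4 and Egr1, induced by activity in background knowledge, all being positive. A gene is said to have risen or fallen, or to be raised or lowered, where the deposited adjusted p was below 0.05. Of 13094 members with an adjusted p, 5326 were called (40.7%), of which 3016 were raised (23% of those tested) and 2310 lowered (17.6%). These 3 percentages are the background for every count below. The median log2 fold change over all members was -0.01 and the median SE 0.20. Just inside the minimum were AI197445, with a mean count of 10 and a log2 fold change of 2.88 ± 0.52 (SE), and Adamtsl3 (10.02, 0.69 ± 0.48), and just outside it Cenpj (9.991, -0.29 ± 0.50) and Fbxo17 (9.989, 1.21 ± 0.49).

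The E1 libraries were shallower than the E0 libraries. The smallest steps between low mean counts, each worth 1 read of a library, put depth at about 1940000, 3360000 and 4760000 reads for E1 and 6140000, 9020000 and 10930000 for E0. A set of genes was read unevenly: 334 members had a mean count under 10 in the authors' deposited table of E4 and E0, although mean counts there are a median 1.9 times those of the E1 table. Of these 334, 315 were raised in E1, 0 were lowered, 12 were not called and 7 had no adjusted p. Such genes could reach the minimum only through the E1 libraries, so this direction was fixed by the selection and is no result. Both tables contain the E0 libraries, so these genes were little read in E0 and E4 and read in at least 1 E1 library. Without them 2701 members were raised and 2310 lowered, of 12767 tested. This cut does not take out every such gene. Maff and Dusp5 stayed in, although their E0 levels implied by the deposited mean and fold change were 5.46 and 7.56. They too reached the minimum only through E1, and the direction of such genes is likewise fixed. Whether the reads of the genes little read in E4 come from all 3 E1 mice was not tested, since no value per library was used. P-values here measure the spread between these mice.

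Rises were larger than falls. The median log2 fold change was 0.92 among raised and -0.66 among lowered genes, and 573 genes rose by at least 2 on the log2 scale where 17 fell by as much. At a change of at least 4 the counts were 190 raised and 0 lowered. The genes little read in E4 made up 48.69% of the rises of at least 2 and 82.63% of those of at least 4, and without them 294 and 33 such rises stood. Better-read genes were called more: among members with a mean count of 10 to 50, 18.5% were raised and 7.87% lowered, at 200 to 1000 27.2% and 22.1%, and above 5000 34.8% and 27%. Median SEs over these 3 ranges were 0.389, 0.144 and 0.0923, so the same change passes the threshold more readily in well-read genes. Deposited fold changes appear shrunken toward 0 where counts are few: where the mean count was under 1, the median absolute log2 change was 0.142. Folds of genes with next to no E0 reads therefore depend on that shrinkage and are no bound.

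**Figure D1:**
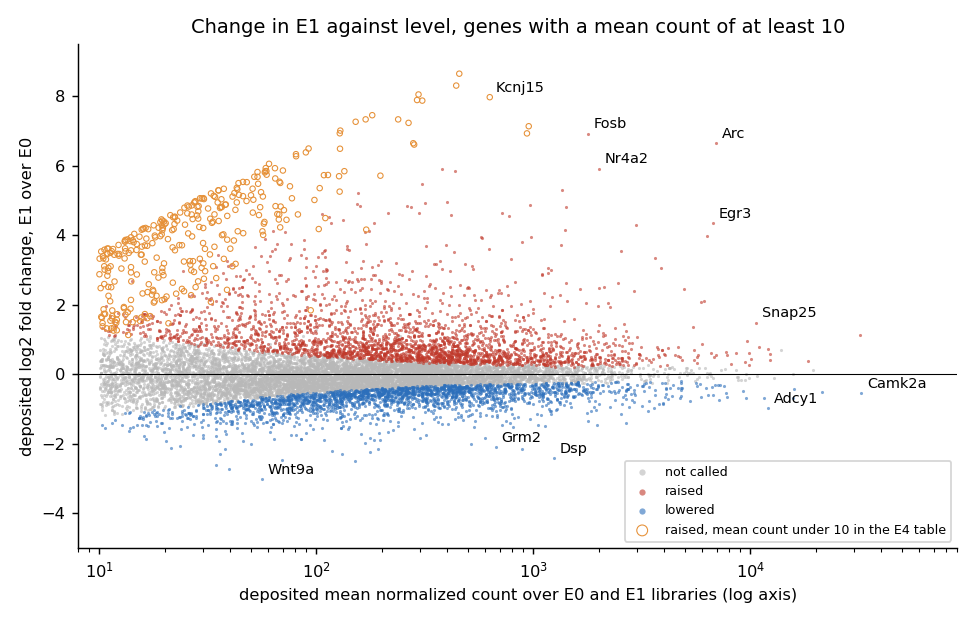
Deposited log2 fold change of E1 over E0 (y) against the deposited mean normalized count (x, log axis) for each member with an adjusted p. Red points were raised, blue points lowered and grey points not called, and orange circles mark raised genes that stayed under 10 mean counts in the E4 table, which fill the upper left edge. Of all members 190 rose by at least 4 and 0 fell by as much.

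The activity-regulated transcription factors moved as whole families. All 8 AP-1 subunits that reached the minimum rose, with a median of 3.42, and so did all 6 members of the Egr and Nab list (median 3.79), all 3 Nr4a orphan receptors (median 4.86) and all 5 Maf factors (median 1.30). Maff, at an implied 5.46 in E0, reached the minimum only through E1, so its direction was fixed by the selection. The AP-1 genes Fosl1, Batf and Batf3 stayed below the minimum, with mean counts of 0.81, 0.277 and 3.5. AP-1 is a dimer of one Fos and one Jun type protein that binds DNA through paired leucine zippers. In the authors' deposited table Fosb changed by 6.92 ± 0.16, from an implied mean count of 29.3 in E0 to 3545 in E1 (the 2 group levels that give the deposited mean and fold change). Fos changed by 4.64 ± 0.21 (implied levels 22.9 and 572), Fosl2 by 3.53 ± 0.11 (401 and 4642) and Atf3 by 5.91 ± 0.26 (12.4 and 744). Of the partners, Junb rose by 3.31 ± 0.13, Jund by 1.97 ± 0.16, Jun by 1.10 ± 0.10 and the repressive partner Jdp2 by 1.46 ± 0.16. Counts are not per length, so levels of different genes are not compared. Implied levels rest on the deposited folds, which appear shrunken where counts are few, so a low E0 level of a raised gene may be overstated.

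Egr factors are zinc finger activators that bind a GC-rich site, and Nab1 and Nab2 are corepressors that bind Egr proteins. In the authors' deposited table Egr3 rose by 4.34 ± 0.09 (implied levels 632 and 12840), Egr1 by 3.72 ± 0.16 (189 and 2480), Egr4 by 4.57 ± 0.17 (62.7 and 1485) and Egr2 by 3.87 ± 0.30 (11.2 and 163). Their brakes rose with them, Nab2 by 2.27 ± 0.13 and Nab1 by 1.44 ± 0.18. The Nr4a proteins are nuclear receptors that act without a known hormone. Nr4a2 rose by 5.92 ± 0.15, Nr4a3 by 4.86 ± 0.15 and Nr4a1 by 4.63 ± 0.16. In the authors' deposited table of E4 and E0, Nr4a2 and Nr4a3 stood below E0 (-0.54 ± 0.23 and -0.99 ± 0.24) and Egr3 still above it (2.30 ± 0.10).

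The promoters of the induced regulators were read to show which known control letters they carry. Printed below are 250 bases before and 50 after the annotated start of 5 genes, on the coding strand from 5' to 3' (RefSeq, build GRCm38.p6, while the authors aligned to mm9): those with the largest folds among raised members of the transcription and effector lists whose window holds a full CRE (TGACGTCA, bound by CREB), a CArG box (bound by Srf) or a TATA box. Some raised members of these lists, among them Arc, Egr1 and Egr3, had no promoter in the set searched. Capitals mark that motif in the 5 printed. Fos lies at chr12:85473640-85473939 (+) with TATAAA 33 bases before the start, Pcdh8, which encodes an adhesion protein of excitatory synapses, at chr14:79771263-79771562 (-) with TATAAA 30 bases before, Egr2 at chr10:67537316-67537615 (+) with a CArG box 72 bases before, Maff at chr15:79347270-79347569 (+) with a CRE 29 bases before, and Pcsk1, which encodes a protease of neuropeptide precursors, at chr13:75089607-75089906 (+) with a CRE 78 bases before.
Fos: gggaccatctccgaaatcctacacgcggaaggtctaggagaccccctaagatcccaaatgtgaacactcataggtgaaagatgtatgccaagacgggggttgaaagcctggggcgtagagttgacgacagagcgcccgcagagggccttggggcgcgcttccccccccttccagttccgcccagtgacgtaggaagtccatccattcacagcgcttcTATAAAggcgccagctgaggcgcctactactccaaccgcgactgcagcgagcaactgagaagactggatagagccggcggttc
Pcdh8: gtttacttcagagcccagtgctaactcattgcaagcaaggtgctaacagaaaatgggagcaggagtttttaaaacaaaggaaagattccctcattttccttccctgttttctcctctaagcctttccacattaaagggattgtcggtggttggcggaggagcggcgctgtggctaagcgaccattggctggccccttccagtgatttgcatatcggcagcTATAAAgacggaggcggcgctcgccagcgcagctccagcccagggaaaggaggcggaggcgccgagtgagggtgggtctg
Egr2: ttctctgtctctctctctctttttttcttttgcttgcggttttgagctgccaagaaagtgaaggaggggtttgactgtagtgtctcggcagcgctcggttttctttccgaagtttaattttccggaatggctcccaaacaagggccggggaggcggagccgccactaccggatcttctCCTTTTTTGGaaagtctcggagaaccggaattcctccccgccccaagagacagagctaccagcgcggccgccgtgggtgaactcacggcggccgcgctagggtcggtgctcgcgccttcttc
Maff: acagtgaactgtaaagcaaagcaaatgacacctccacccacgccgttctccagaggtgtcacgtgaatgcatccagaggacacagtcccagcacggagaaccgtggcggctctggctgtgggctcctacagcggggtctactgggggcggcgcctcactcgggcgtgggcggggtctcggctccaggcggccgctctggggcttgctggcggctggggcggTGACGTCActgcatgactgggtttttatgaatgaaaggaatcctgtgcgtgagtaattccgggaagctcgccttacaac
Pcsk1: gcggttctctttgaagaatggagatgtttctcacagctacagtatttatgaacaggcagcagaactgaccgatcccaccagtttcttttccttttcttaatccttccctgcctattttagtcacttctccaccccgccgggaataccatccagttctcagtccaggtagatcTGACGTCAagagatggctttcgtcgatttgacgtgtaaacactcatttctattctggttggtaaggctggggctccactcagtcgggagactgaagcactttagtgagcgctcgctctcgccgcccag

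Full CREs were not the rule among these promoters. Of the 68 raised members of the transcription and effector lists with a promoter in the table, 6 held a full CRE, 42 the short CRE TGACG (which every full CRE contains), 15 an Egr motif (GCGTGGGCG or GCGGGGGCG), 16 an NF-kappaB motif, 9 the E-box CACGTG, 2 the AP-1 motif TGACTCA, 2 a CArG box and 2 a TATA box (TATAAA in the 50 bases before the start; the others on either strand). Over the 13361 promoters of all members, 2.93% held a full CRE, 30% the short CRE, 6.65% an Egr motif and 12.3% an NF-kappaB motif. The E-box stood at 9.76%, the AP-1 motif at 3.57%, the CArG box at 1.32% and the TATA box at 1.27%. The counts among the 68 are of genes with a match in any of their promoters and the shares are per promoter, so they differ in unit. Of the 5 genes printed, Maff also held an Egr motif. Over all members, 5.03% of the promoters of genes raised by at least 2 and read in both tables held a full CRE (15 of 298), beside 2.07% of lowered genes, 2.9% of genes not called and 1.79% of all 32851 promoters. With genes little read in E4 included that share was 3.47%. Among genes raised by 1 to 2 it was 3.12%, and among those raised by under 1 it was 4.07%. In the first set the short CRE stood at 31.2% and the Egr motif at 4.36%, beside 30.3% and 6.74% of genes not called. The TATA box was found in 4.36% of the first set, 1.1% of lowered genes, 1.04% of genes not called and 2.63% of all promoters, and the CArG box in 3.02%, 1.23%, 1.13% and 1.63%. Among the 221 promoters of genes raised by at least 2 but little read in E4, 1.36% held a full CRE (3.45% of 58 at a minimum mean count of 50), 3.17% a TATA box, 0.905% a CArG box, 12.2% the short CRE, 8.6% an AP-1 motif and 0 an Egr motif, and their median GC content was 51.7% beside 58.8% in the set read in both tables. A match is a description of letters in this window, not a binding site.

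Krueppel-like factors, zinc finger proteins that bind GC boxes, were raised in 8 of 13 members and lowered in 1. Klf10 rose by 1.34 ± 0.18, Klf9 by 1.04 ± 0.12, Klf6 by 1.10 ± 0.22 and Klf4, with a mean count of 21.4, by 2.0 ± 0.42, and Klf13 fell (-0.46 ± 0.11). Klf4, at an implied 8.58 in E0, reached the minimum only through E1. Klf10 stood at 4.05 ± 0.13 in the deposited table for E4. Of the CREB family, the factors through which cAMP and calcium act, 7 of 13 rose: Atf1 by 2.85 ± 0.23, Crem by 1.27 ± 0.24, Atf4 by 0.91 ± 0.14 and the coactivator Crebbp by 0.76 ± 0.14, while the Crtc coactivators Crtc3 (-0.83 ± 0.21) and Crtc1 (-0.36 ± 0.09) fell.

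Serum response factor and its partners split. Srf rose by 1.41 ± 0.13 and Elk4 by 0.54 ± 0.20, and the partners Elk1 (-1.47 ± 0.13), Mkl1 (-0.62 ± 0.14) and Mkl2 (-0.55 ± 0.10) fell, so that 2 of 9 were raised and 3 lowered, or 2 and 5 with the length and GC trend described below removed. Mef2a and Mef2c were not called at -0.11 ± 0.11 and -0.18 ± 0.12. Npas4, a neuron-specific bHLH-PAS factor that acts on inhibitory synapses, rose by 2.98 ± 0.32 (implied levels 24.2 and 191), and 5 of 10 members of its list rose and 1 fell. Csrnp1 (3.27 ± 0.21) and Ier5 (2.34 ± 0.17) led the Ier and Csrnp list, 4 of 7 raised. Csrnp3, raised at 0.37 ± 0.13, turned to -0.08 with an adjusted p of 0.677 when that trend was removed. Of the Id, Hes and Hey list most members were not called: Id3 (-1.56 ± 0.27), Hes6 (-1.11 ± 0.26) and Hey1 (-0.63 ± 0.16) fell and Hes1 and Bhlhe40 rose (0.87 ± 0.34 and 0.47 ± 0.13), 2 raised, 3 lowered and 7 not called of 12.

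Clock genes changed in both directions. Per1 and Per2, the repressors of the clock that also answer acute signals, rose by 2.28 ± 0.13 and 1.74 ± 0.15, Nfil3, a repressor of D-box genes, by 2.89 ± 0.18 and Rorb by 2.31 ± 0.23. The 3 D-box activators Tef, Dbp and Hlf fell, with -1.13 ± 0.09, -1.57 ± 0.24 and -0.64 ± 0.10. Over the list 9 of 21 rose and 5 fell. In the deposited table for E4 Tef, Dbp and Hlf were lower too (-1.31 ± 0.08, -1.26 ± 0.15 and -1.89 ± 0.09), while Per1 was at -0.21 ± 0.11. Among developmental regulators 9 of 23 rose and 4 fell, with Sox11 (1.80 ± 0.16) and Pou3f2 (1.6 ± 0.21) on one side and Bcl11b (-1.17 ± 0.12) on the other.

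Of the MAP kinase phosphatases that reached the minimum, 7 of 9 rose and 1 fell, with a median of 1.43. These Dusp proteins strip phosphates from ERK, p38 and JNK. Dusp5 rose by 3.67 ± 0.33, Dusp6 by 2.52 ± 0.17, Dusp4 by 2.42 ± 0.15 and Dusp1 by 2.35 ± 0.21. Dusp5, at an implied 7.56 in E0, reached the minimum only through E1. Dusp14 fell in E1 (-0.80 ± 0.20) and stood at 2.79 ± 0.11 in the deposited table for E4. Of the receptor kinase inhibitors of the Sprouty and Spred type, with Errfi1, 6 of 7 rose, among them Spry2 (2.55 ± 0.13) and Errfi1 (2.44 ± 0.14), and Spry1 fell (-1.42 ± 0.25).

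Inducible kinases rose too. By the authors' deposited table, Plk2, which weakens synapses after strong firing, rose by 3.35 ± 0.10 (implied levels 645 and 6593), Sgk1 by 2.90 ± 0.13 and Sik1, which restrains Crtc coactivators, by 2.84 ± 0.19, and 6 of 10 members of this list rose and 0 fell. Pim1, a kinase without a known off state, rose by 4.36 ± 0.32, Socs2 by 2.70 ± 0.30 and Pim3 by 1.51 ± 0.18, with 5 of 9 Socs and Pim genes raised and Pim2 lowered (-0.49 ± 0.19). Ras-like GTPases were raised in 14 of 18 members: Arl5b by 3.92 ± 0.17, Arl4d by 3.18 ± 0.18, Rheb, the activator of mTORC1, by 1.56 ± 0.11 and the exchange factor Rasgrp1 by 1.55 ± 0.13, and Hras fell (-0.41 ± 0.12). Regulators of G protein signalling rose in 6 of 15 and fell in 3, with Rgs4 at 2.46 ± 0.09, Rgs2 at 2.49 ± 0.15 and Rgs14 at -0.86 ± 0.13.

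Fewer members were called in the mRNA decay and NF-kappaB lists. Btg2, an adaptor for deadenylation, rose by 2.14 ± 0.18 and Ccrn4l, which encodes Nocturnin, by 1.04 ± 0.13, and 5 of 15 decay factors rose and 1, Cnot8, fell (-0.71 ± 0.16). With the length and GC trend removed 3 decay factors were raised and 3 lowered. Of the NF-kappaB list Tnip1 fell (-0.57 ± 0.22) and 4 of 11 rose, Nfkb1 by 0.80 ± 0.20, Nfkbiz by 1.21 ± 0.32, Relb by 1.36 ± 0.46 and Rel by 1.31 ± 0.49. Relb and Rel had mean counts of 15.4 and 13.3, and the inhibitor Nfkbia was not called (0.12 ± 0.26). At implied E0 levels of 8.6 and 7.7, Relb and Rel reached the minimum only through E1.

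Genes acting at the synapse were raised in 14 of 23 members of the effector list and lowered in 2, with a median of 1.07. Arc, which removes AMPA receptors and forms capsid-like particles, rose by 6.65 ± 0.14, from an implied 137 to 13810. Homer1, a scaffold of metabotropic receptors whose short form is activity-induced, rose by 4.30 ± 0.10 (287 and 5632); the table does not separate its isoforms. Ptgs2, the inducible cyclooxygenase, rose by 4.16 ± 0.11 and Pcdh8 by 3.99 ± 0.12 (746 and 11830). Nptx2, a secreted pentraxin that clusters AMPA receptors, rose by 4.8 ± 0.17, while its relative Nptx1 was not called (0.04 ± 0.11) and stood at 1.25 ± 0.10 in the table for E4. Amigo1 (-0.72 ± 0.12) and Narf (-0.45 ± 0.15) fell.

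Secreted peptides and their processing enzymes were raised in 9 of 20 members. Vgf, a granin-like precursor, rose by 2.90 ± 0.14, the protease Pcsk1 by 2.93 ± 0.22, Scg2 by 1.45 ± 0.09 and Chgb by 1.32 ± 0.09. The member lowered was Pdyn, the dynorphin precursor made by granule neurons (-0.95 ± 0.16), and Cpe, the carboxypeptidase with the most counts in the list, was not called (-0.06 ± 0.08). Among neurotrophin genes Bdnf rose by 2.62 ± 0.12 (implied levels 395 and 2435), while Ntf3 fell (-1.86 ± 0.26). Ngfr rose by 4.33 ± 0.36 but is among the genes little read in E4 (mean count 4.30 in the E4 table). The list as a whole had 5 raised and 2 lowered of 11, or 4 and 4 with the length and GC trend removed. Ntrk2, the receptor of Bdnf, was not called (-0.12 ± 0.08).

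In the Fgf, Vegf and ErbB list 19 of 30 members rose and 2 fell (median 0.65): Vegfa by 1.81 ± 0.14, Fgf10 by 1.89 ± 0.20, and the semaphorin and Vegf receptors Nrp2 and Nrp1 by 1.19 ± 0.15 and 0.90 ± 0.12, against falls of Fgfr3 (-0.72 ± 0.14) and Fgf1 (-0.58 ± 0.16). Of the activin, Bmp and Tgf-beta list 12 of 33 rose and 5 fell. Its leaders were Inhba, the activin subunit, at 4.63 ± 0.26 and the inhibitory Smad7 at 3.53 ± 0.16, and its falls included the activin antagonist Fst (-1.34 ± 0.33), the receptor Acvr1b (-0.80 ± 0.14) and Smad3 (-0.58 ± 0.13). With the length and GC trend removed the list had 11 raised and 10 lowered. Bmp4 (4.01 ± 0.38) was little read in E4, with a mean count of 6.90 in the E4 table.

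Wnt genes held the only fall of at least 3 among all members, that of Wnt9a, at -3.02 ± 0.35 (implied levels 100.4 and 12.4), with Wnt7b at -1.43 ± 0.16 and the antagonist Frzb at -0.57 ± 0.15. The antagonist Dkk3 rose by 1.96 ± 0.15 and Wnt4 by 1.07 ± 0.20. Over the list 8 of 30 rose and 3 fell, a share of raised near the background. Notch genes had 3 raised (Numbl 1.29 ± 0.14, Rbpj 1.05 ± 0.16, Notch3 0.73 ± 0.30) and 3 lowered of 18, also near it.

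Receptors and channels changed one gene at a time. Among AMPA and kainate receptor genes 6 of 16 rose and 3 fell: Gria3 by 0.99 ± 0.12, Gria4 by 1.12 ± 0.19 and Cacng2 by 1.01 ± 0.19, against Cnih3 (-1.21 ± 0.15), Shisa9 (-0.43 ± 0.14) and Gria1 (-0.31 ± 0.10). Gria2, raised at 0.55 ± 0.10, is an AT-rich transcript and turned to -0.20 (adjusted p of 0.113) with the length and GC trend removed. Grm2, the presynaptic metabotropic receptor of granule neuron terminals, fell by 2.09 on the log2 scale (SE 0.18). The NMDA receptor subunits Grin1 and Grin2a were not called (0.10 ± 0.14 and 0.10 ± 0.15), and 3 of 13 in that list rose, at the background share. Of GABA receptor genes 6 of 15 rose and 2 fell, or 4 and 4 with the trend removed. Gabra3 rose by 1.84 ± 0.28 and Gabra2 by 0.98 ± 0.13, and Gabrd, the subunit of tonic inhibition in granule neurons, fell (-1.65 ± 0.17).

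Potassium channels had nearly balanced calls, 16 raised and 13 lowered of 58, with a median of 0.01. Kcnj16 (3.17 ± 0.19), Kcnj2 (2.65 ± 0.30), Kcnc2 (2.33 ± 0.15) and Kcnq5 (2.26 ± 0.18) rose, and Kcnj11, the pore of the ATP-sensitive channel (-1.90 ± 0.18), Kcnk1 (-0.85 ± 0.14) and Kcnab2 (-0.61 ± 0.10) fell. The SE of Kcnj2 was above the median of 0.144 for its range of mean count. Sodium, calcium and HCN channels leaned to rises, 12 of 26 against 2, with Scn1a at 1.19 ± 0.14. Their transcripts are long, with a median of 8076 bases beside 3544 over all members, and the list's median of 0.35 became 0.09 with the length and GC trend removed, with 9 raised and 3 lowered.

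Calcium, calmodulin and cAMP signalling genes were raised in 18 of 44 and lowered in 9. Both main subunits of calcium/calmodulin kinase II and adenylyl cyclase 1 fell in the authors' deposited table: Camk2a by 0.54 (SE 0.08), Camk2b by 0.69 (SE 0.09) and Adcy1 by 0.98 (SE 0.11) on the log2 scale. Pkib, an inhibitor of protein kinase A, rose by 3.71 ± 0.36, Pde1a by 1.66 ± 0.14 and Camk4 by 1.14 ± 0.14, and Pde1b fell (-1.04 ± 0.09). In the vesicle release list 20 of 37 rose and 5 fell. Snap25, a SNARE protein, rose by 1.48 ± 0.10 from an implied 5610 to 15650, Sv2b by 2.33 ± 0.16, Syn2 by 0.74 ± 0.09 and Syt1 by 0.71 ± 0.10, while Cplx2 was the least changed of the well-read genes, at 0.00 ± 0.08.

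Chromatin regulators held a few large rises. In the authors' deposited table Gadd45b and Gadd45g, which take part in DNA demethylation and repair, rose by 4.59 ± 0.21 and 1.97 ± 0.17, Mbd4 by 1.54 ± 0.22 and Tet2 by 1.18 ± 0.18, while Tet1 (-1.44 ± 0.33) and Apex1 (-1.62 ± 0.35) fell, 5 raised and 2 lowered of 13. Of the histone lysine demethylases 4 of 19 rose and 4 fell, or 3 and 7 with the length and GC trend removed: Kdm6b, which removes methyl groups from H3K27, by 3.06 ± 0.15, Jmjd1c by 1.55 ± 0.13 and Kdm7a by 1.29 ± 0.11, against Kdm4a (-0.90 ± 0.15), Phf2 (-0.66 ± 0.15) and Kdm5b (-0.46 ± 0.13). Of deacetylases and sirtuins 2 of 18 rose (Hdac9 0.78 ± 0.17, Sirt1 0.70 ± 0.20) and 4 fell, with Hdac1 at -0.74 ± 0.15. BAF remodeling subunits had 2 of 25 raised and 7 lowered, Bcl7a at -0.87 ± 0.13, Smarcd2 at -1.09 ± 0.21 and Dpf1 at -0.72 ± 0.15.

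**Figure D2:**
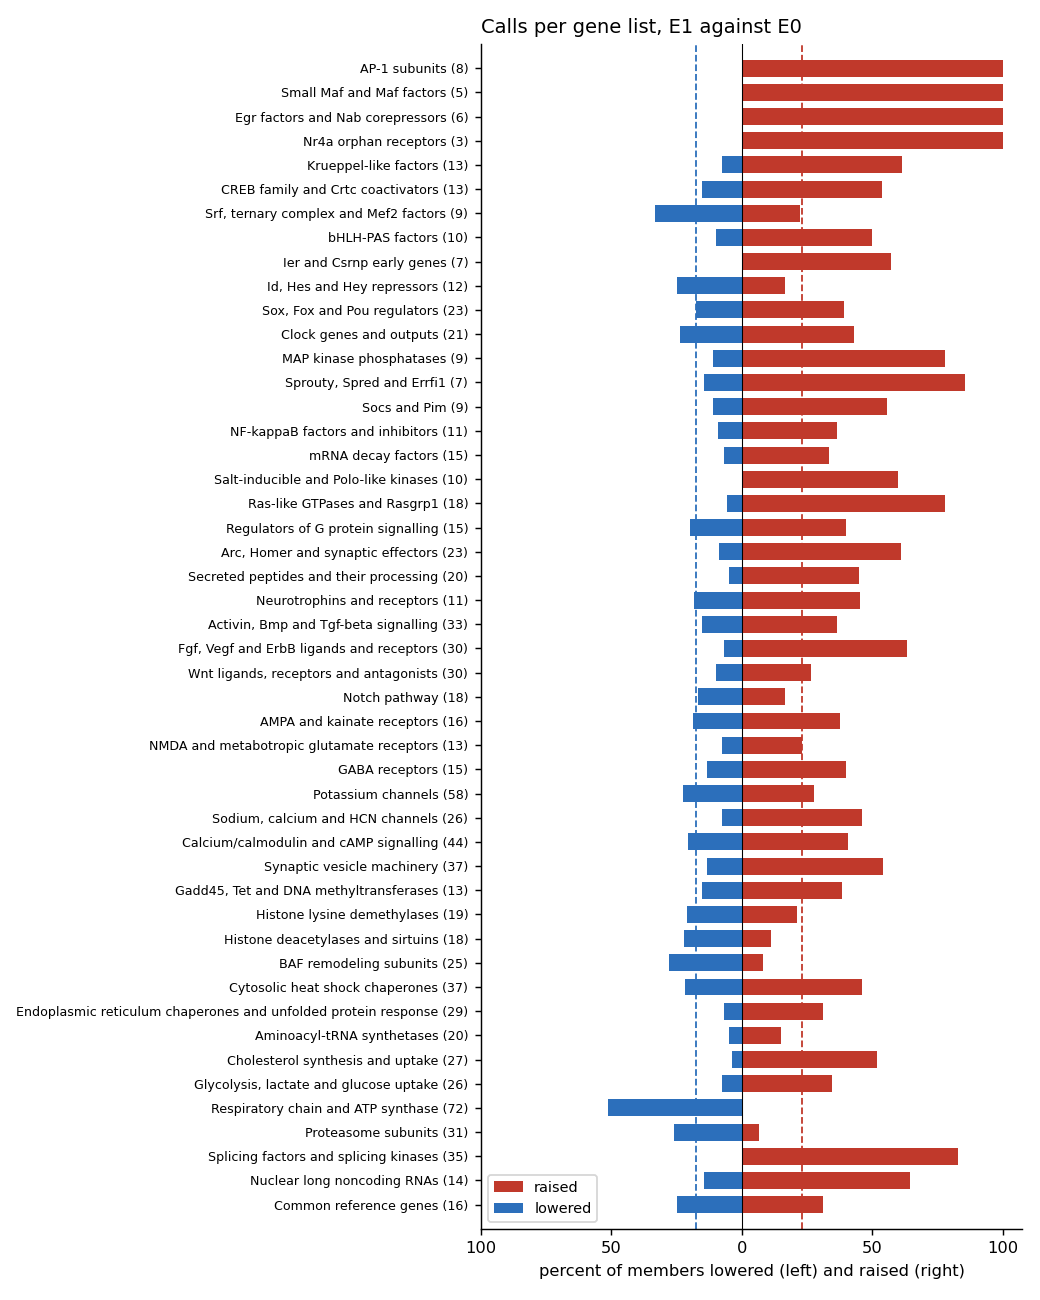
Percent of each list's members that were raised (red, to the right) and lowered (blue, to the left) in E1 against E0, with the number of members in brackets. Dashed lines mark the same percentages over all members tested, 23 and 17.6; AP-1, Maf, Egr and Nr4a reach 100 percent raised, and the respiratory chain has 0 raised.

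Of 93 genes with symbols starting in Rpl or Rps, the symbols of ribosomal proteins, 70 were lowered and 9 raised, with a median of -0.55. The class is set by symbol and can include kinase genes whose symbols start in Rps, so its counts are not of ribosomal proteins alone. Of 77 mitochondrial ribosomal protein genes 26 were lowered and 1 raised (median -0.37). Ribosomal protein genes have many near-identical copies, so single members are uncertain and none is named. In the respiratory chain and ATP synthase, which make ATP in mitochondria, 37 of 72 members fell and 0 rose (median -0.30), among them Atp5k (-1.28 ± 0.16), Ndufb11 (-1.10 ± 0.15) and Cox7c (-0.96 ± 0.15). Atp5b and Sdha were not called (-0.19 ± 0.09 and 0.18 ± 0.09). Proteasome subunits had 8 of 31 lowered and 2 raised.

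Transcript length and base composition moved with these calls. Taking the longest annotated transcript of each gene (GENCODE M21, 13009 tested members matched), 31.2% of genes under 1000 bases were lowered and 12.9% raised, and of those of 8000 bases or more 9.47% were lowered and 37.9% raised. At a GC content below 40%, 38.3% were raised and 5.69% lowered, and at 50% to 55%, 16.3% and 25.3%. Genes of the Rpl and Rps class and respiratory genes are short, with median lengths of 1120 and 1232 bases. Within a range of length, under 1000 bases 31 of 38 Rpl and Rps genes (81.6%) and 16 of 31 respiratory genes (51.6%) were lowered beside 86 of 363 others (23.7%). From 1000 to 2000 bases the shares were 84.4%, 54.2% and 21.9%. With a smooth trend on length and GC content removed from all fold changes, the Rpl and Rps class had 50 lowered and 7 raised (median -0.32). The respiratory list then had 24 lowered and 3 raised (median -0.16).

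**Figure D3:**
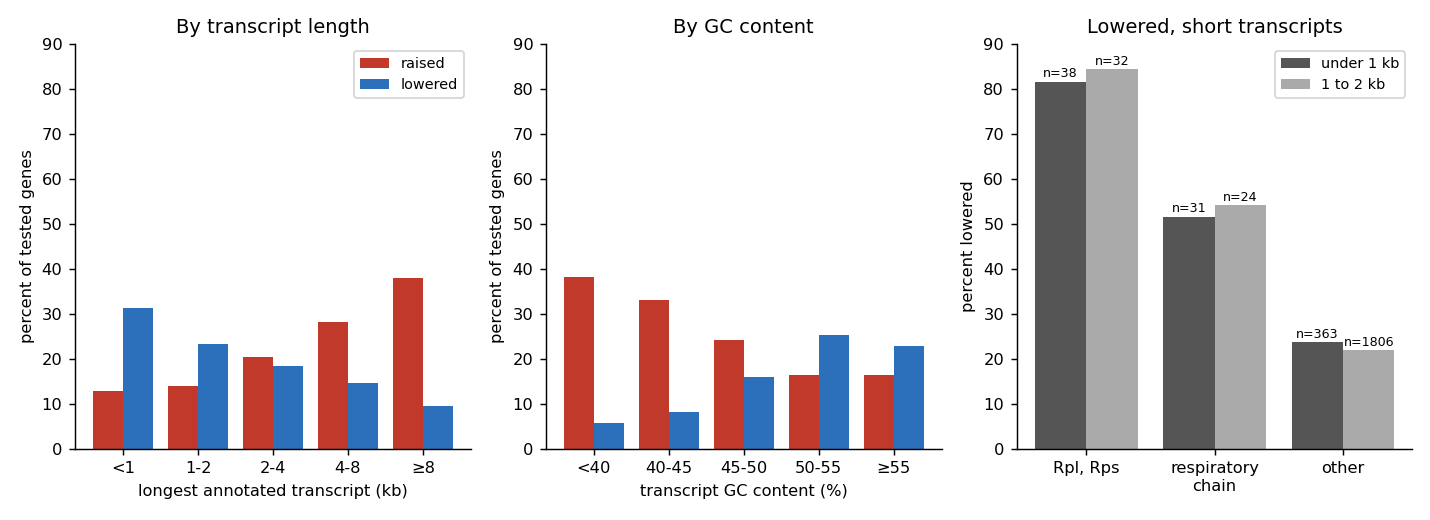
Left and middle, percent of tested genes raised (red) and lowered (blue) by length of the longest annotated transcript in kilobases and by its GC content in percent. Right, percent lowered among Rpl and Rps genes, respiratory chain genes and all other members under 1 and at 1 to 2 kilobases, with the number of genes over each bar. The Rpl and Rps bars stand at 81.6 and 84.4 percent and those of other genes at 23.7 and 21.9.

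Of splicing factors and splicing kinases 29 of 35 were raised and 0 lowered, with a median of 0.50. Srsf5 rose by 1.33 ± 0.11, Srsf7 by 1.22 ± 0.11, Hnrnpu by 0.98 ± 0.10 and Hnrnph1 by 0.92 ± 0.10, each of them a protein that binds pre-mRNA, while Srsf3 and Hnrnpf were not called (0.18 ± 0.11 and 0.19 ± 0.13). Their transcripts are AT-rich, with a median GC content of 44.1% beside 49.7% over all members. With the length and GC trend removed 21 were raised and 0 lowered, with a median of 0.37. In the deposited table for E4 the list's median was 0.48.

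Chaperones and sterol genes also leaned upward. Of cytosolic chaperones 17 of 37 rose, among them Dnajb5 (2.04 ± 0.14), Dnajb1 (1.99 ± 0.14), Hsp90aa1 (1.36 ± 0.11) and Hspa4 (1.12 ± 0.09), and 8 fell, including the steroid receptor cochaperones Fkbp5 (-1.21 ± 0.17) and Fkbp4 (-0.75 ± 0.12). In the endoplasmic reticulum Hspa5 rose by 1.42 ± 0.11 and Hsp90b1 by 0.70 ± 0.09, with 9 of 29 raised and the stress sensor Atf6 lowered (-0.74 ± 0.13). Of cholesterol synthesis and uptake 14 of 27 rose and 1 fell (median 0.38): Cyp51 by 1.02 ± 0.12 and Idi1 by 0.95 ± 0.15, and Abcg1, a sterol exporter, fell (-0.66 ± 0.13). With the length and GC trend removed the counts were again 14 and 1.

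Carriers of lactate and glucose were among the raised genes of glucose use. By the authors' deposited table, Slc16a1, a lactate carrier, rose by 2.19 ± 0.15, the glucose carriers Slc2a1 and Slc2a3 by 1.40 ± 0.14 and 0.65 ± 0.11 and Pfkfb3, which speeds glycolysis, by 1.26 ± 0.17, while Gapdh and Aldoa were not called (-0.10 ± 0.09 and 0.01 ± 0.08). The list had 9 of 26 raised and 2 lowered, Aldoc at -0.67 ± 0.11 and Pfkm at -0.42 ± 0.10. Aminoacyl-tRNA synthetases had 3 of 20 raised and 1 lowered. Of 16 genes in common use as references 5 were raised and 4 lowered (6 and 2 with the length and GC trend removed), with Ywhaz at 0.95 ± 0.08, Actb at 0.59 ± 0.09, Ppia at -0.87 ± 0.09 and Eef1a1 at -0.43 ± 0.10.

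In the list of long noncoding RNAs 9 of 14 members rose, with 2 lowered (7 and 2 with the trend removed). Kcnq1ot1, which silences the imprinted cluster it lies in, rose by 5.30 ± 0.17 (implied levels 66.7 and 2633), Neat1, the core of paraspeckles, by 3.12 ± 0.19, Snhg11 by 2.38 ± 0.15 and Meg3 by 2.10 ± 0.12. Kcnq1ot1 runs antisense to Kcnq1, and as strand use is not given in the sources used here, their reads cannot be told apart. The growth arrest transcript Gas5 fell (-0.38 ± 0.12). Of 176 members named Gm with a number 97 were raised and 8 lowered, with a median of 0.98, and 38 of the 97 were little read in E4. Numbered Zfp genes, which mostly encode KRAB zinc finger repressors, leaned the other way, 45 raised and 67 lowered of 299. Of 50 clustered protocadherins 1 was raised and 1 lowered.

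Cell type markers shifted as well, and in bulk tissue fewer cells of a type and less RNA per cell cannot be told apart. All 19 markers of granule neurons reached the minimum, but so did all 17 of astrocytes and all 18 of microglia, so the minimum does not tell the tissue's main cells. Of the granule neuron markers 13 were lowered and 5 raised (median -0.54), and their summed implied level went from 19780 in E0 to 13620 in E1. Dsp (-2.41 ± 0.14), Pdzd2 (-2.14 ± 0.18), Lct (-1.41 ± 0.14) and the granule neuron regulator Prox1 (-0.66 ± 0.11) fell, and Zbtb20 (1.84 ± 0.24) and Trpc6 (0.99 ± 0.14) rose. In the deposited table for E4 Prox1 was at 0.41 ± 0.10 and Pdzd2 at 1.29 ± 0.10, and the list's median was -0.03.

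Markers of GABAergic interneurons rose in 13 of 19 members and fell in 0 (median 0.81, summed level 6272 in E0 and 8940 in E1), with Gad2 at 1.57 ± 0.12, Lhx6 at 1.35 ± 0.22, Slc32a1 at 1.25 ± 0.15 and Gad1 at 0.49 ± 0.09, while Dlx6 stayed below the minimum with a mean count of 4.21. Of 17 mossy and pyramidal neuron markers 9 rose and 2 fell (median 0.59, summed level 9504 and 12680). Chgb, also in the secreted peptide list, made up much of that difference (implied levels 1353 and 3383). Neurod6, a pyramidal neuron factor, rose by 2.13 ± 0.38, where the median SE of its range of mean count was 0.144. Drd2 and Pou3f1 of this list stayed below the minimum, with mean counts of 7.99 and 7.86, and Nts at 0.881. The part of neurons from outside the granule layer in the rises above was not tested.

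Astrocyte markers fell in 11 of 17 members and rose in 1 (median -0.41, summed level 53370 in E0 and 43900 in E1), with Aldh1l1 at -1.09 ± 0.15, Gfap at -0.95 ± 0.14 and Glul at -0.68 ± 0.09, and Slc1a2, the glutamate carrier, not called at 0.13 ± 0.10. Microglial markers fell in 7 of 18 and rose in 0 (median -0.45, summed level 3288 and 2372; 4 lowered with the length and GC trend removed), among them Csf1r (-0.71 ± 0.12), while Cx3cr1 was not called (0.20 ± 0.15). Oligodendrocyte genes were mixed, 3 raised and 2 lowered of 16 (summed level 6394 and 6758), with Mbp at -0.42 ± 0.09, and precursors had 1 of 11 raised (1870 and 1874).

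Of vessel markers 5 were raised and 2 lowered of 17 endothelial genes, a share of raised near the background, and the glucose carrier Slc2a1 (implied levels 358 and 946) made up much of the difference in their summed level (1254 and 2127). The endothelial receptor gene Flt1 stood at 1.49 ± 0.30. Of 9 pericyte genes 3 were raised and 0 lowered (summed level 445.3 and 662.6), with Abcc9 at 2.28 ± 0.33. Meningeal markers had 1 of 11 raised, and Ptgds had an SE of 0.53 at a mean count of 732, beside a median SE of 0.144 in that range. Progenitor and immature neuron markers had 4 raised and 4 lowered of 18 (3 and 2 with the length and GC trend removed), with Dcx at 1.71 ± 0.19 and Igfbpl1 at -1.91 ± 0.34. Of choroid plexus and ependyma 4 of 12 markers reached the minimum (1 raised, 1 lowered, summed level 228.5 and 159.7), and Ttr was not called at a mean count of 26.4. Of 14 blood cell markers 0 reached it, Alas2 came nearest at 6.40, and the 6 globin genes are listed at 0.

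**Figure D4:**
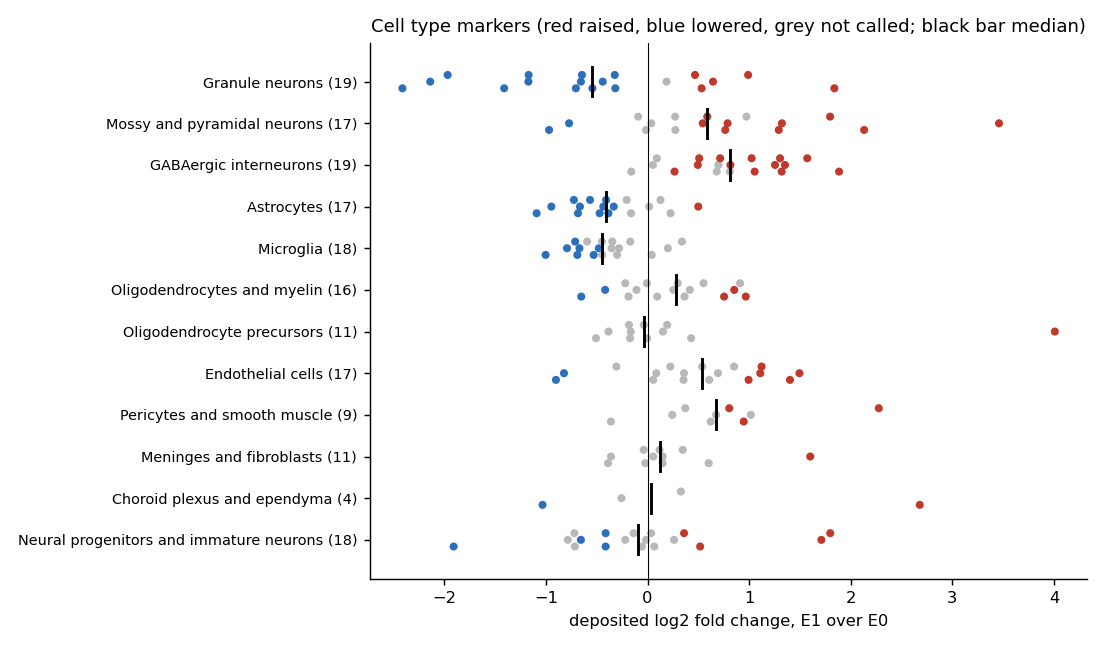
Deposited log2 fold change of E1 over E0 for each marker that reached the minimum, by cell type, with the number of markers in brackets. Red points were raised, blue lowered, grey not called, and the black bar is the median; granule neuron, astrocyte and microglial medians lie at -0.54, -0.41 and -0.45 and that of interneurons at 0.81.

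The 20 largest rises were ranked among genes that reached 50 mean counts in the E1 table and 10 in the E4 table. Besides the early genes above they held genes of other kinds. Grk4, a kinase of G protein coupled receptors, rose by 5.83 ± 0.21, Tacr1, the substance P receptor, by 5.48 ± 0.26, Gdap10 by 5.21 ± 0.31, Ctcfl, a germline relative of CTCF, by 4.91 ± 0.26, Tnfrsf10b, a death receptor, by 4.61 ± 0.30 and the homeobox gene Meis2 by 4.81 ± 0.38. Implied E0 levels of these 6 were between 8.23 and 18.8. Gdap10, Tnfrsf10b and Ctcfl, at 8.23, 8.33 and 9.92, reached the minimum only through E1, so their direction was fixed by the selection. In the deposited table for E4 these 6 lay between -0.25 and 0.31, each within 1 SE of 0. Rara, the retinoic acid receptor (4.96 ± 0.24), and Cenpa, a histone variant of centromeres (4.93 ± 0.20), stood at 3.98 ± 0.19 and 3.24 ± 0.21 in the table for E4.

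The 20 largest falls, ranked in the same way, held the granule neuron markers Dsp, Pdzd2 and Tdo2. After Wnt9a came Dclk3, a kinase (-2.50 ± 0.25), Zcchc5 (-2.47 ± 0.30), Dsp, the desmosome protein desmoplakin, Kirrel2, an adhesion protein (-2.31 ± 0.23), the interleukin receptor Il1r1 (-2.23 ± 0.21), the glucagon-like peptide receptor Glp2r (-2.15 ± 0.19) and Tdo2, which degrades tryptophan (-1.97 ± 0.20). Tdo2 stood at -4.0 ± 0.18 in the deposited table for E4, Zcchc5 at -3.41 ± 0.25 and Wnt9a at -2.64 ± 0.23. On the other side of E0, Pdzd2 stood at 1.29 ± 0.10, Grm2 at 0.95 ± 0.12 and Il1r1 at 0.41 ± 0.11 there, and Dclk3 and Nrde2 were not called (0.28 ± 0.15 and 0.04 ± 0.13).

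**Figure D5:**
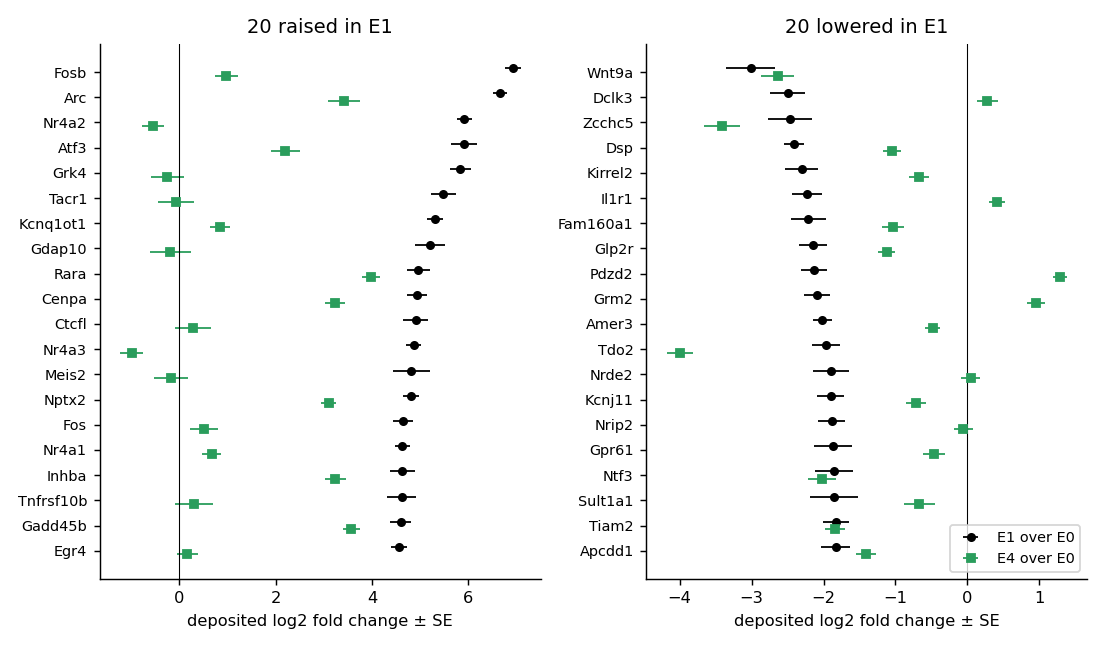
Deposited log2 fold change ± SE of E1 over E0 (black circles) and of E4 over E0 (green squares) for the 20 genes with the largest rises (left) and falls (right) in E1 that reached 50 mean counts in the E1 table and 10 in the E4 table. Both comparisons share the E0 libraries; Rara and Cenpa stay near 4 and 3 in E4 and Nr4a3 goes to -0.99, and on the right Pdzd2 reaches 1.29.

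The difference of the 2 deposited fold changes was compared with its combined SE for all 12767 genes that reached 10 mean counts in the E4 table too. It had an adjusted p below 0.05 in 4681 genes (36.7%), with E4 higher in 2256 and lower in 2425. Both comparisons share E0, which the combined SE ignores. For Fosb the adjusted p was 5.41e-90, for Rara 0.00576, for Grm2 9.62e-43 and for Pdzd2 6.28e-59. For Wnt9a, Ntf3 and Tiam2 it was 0.513, 0.724 and 0.970, with log2 fold changes of -1.86 ± 0.26 and -2.02 ± 0.19 for Ntf3 and -1.83 ± 0.18 and -1.85 ± 0.14 for Tiam2 in E1 and E4. Rgs4 (0.421), Ier5 (0.758), Vegfa (0.555) and Dnajb5 (0.972) likewise missed the threshold, at rises of 1.65 to 2.46 in both tables, which does not show that their levels were equal.

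Changes among the genes with the most counts were small in fold. By the authors' deposited table, Prnp rose by 0.78 ± 0.09, Hspa8 by 0.74 ± 0.10 and Arf3 by 0.61 ± 0.09. On the other side Ncdn (-0.52 ± 0.12), Ddn, which encodes dendrin (-0.68 ± 0.10), Map1a (-0.65 ± 0.10) and Ptk2b (-0.53 ± 0.09) fell. Among 377 genes whose SE was under 0.1 and whose mean count reached 1000, Cplx2, Ensa, Ccni, Pfn2 and Akr1a1 changed least, each by at most 0.01 with SEs of 0.08 to 0.10. Ensa was nevertheless at 0.72 ± 0.09 in the deposited table for E4.

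Where the E4 table gave a mean count under 1, 131 of 136 members were raised and 0 lowered, a direction again fixed by the minimum, which they could reach only through E1. The best read were Kcnj15 (mean count 630 in the E1 table and 0.48 in the E4 table, each over E0 and the other group), Serpina1a (441 and 0.263), Runx3 (308 and 0.845), Cyp4a31 (296 and 0), Hspb7 (238 and 0.88) and Lrrc17 (233 and 0.158), the last without an adjusted p. They encode an inward rectifier channel, a protease inhibitor made in liver, a lymphocyte and sensory neuron factor, a fatty acid hydroxylase, a small heat shock protein and a leucine-rich repeat protein. Of the 12 nearest members on both sides of these 6 genes 0 were raised and 2 lowered, beside 23% and 17.6% of all members, by the gene order of the RefSeq annotation. Most of these pairs are not adjacent: 17 annotated genes that are not members lay between Serpina1a and Serpina3n, and 8 between Cyp4a31 and Cyp4x1.

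Of the 40 nearest members beside the 20 largest rises, 8 were raised and 8 lowered, beside 23% and 17.6% of all members. The raised ones were Grasp, a scaffold of glutamate receptors next to Nr4a1, at 3.0 ± 0.14, Nsl1 beside Atf3 at 3.61 ± 0.27, Jdp2 beside Fos, Bai1 beside Arc at 0.80 ± 0.13, Atg101 on the other side of Nr4a1 at 0.69 ± 0.19, Pmepa1 beside Ctcfl at 0.69 ± 0.15, Alms1 beside Egr4 at 0.68 ± 0.28 and Wipf2 beside Rara at 0.38 ± 0.12. Annotated genes that are not members lay between some of these pairs: 5 each for Nsl1 and Pmepa1, 2 for Jdp2 and 1 each for Bai1 and Wipf2. Gng7 beside Gadd45b fell (-1.02 ± 0.12), as did Fbxo41 beside Egr4 (-0.79 ± 0.11). Of the 40 neighbours of the 20 largest falls 11 were raised and 11 lowered. Overlapping transcripts of neighbours cannot be told apart without strand.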

How the data were processed

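Dentate gyrus RNA of 9 mice was sequenced; library strand is not given in the sources used here. Reads were aligned with TopHat2 to mm9 and compared with DESeq2, per the submitters' processing notes (no versions there). Per the file headers, each deposited table holds the mean normalized count (a signal over both groups), the log2 fold change with its SE, the test score and the p-value with its adjusted p. The authors' deposited score equals log2 fold change over SE to within 9.8e-08, and the deposited adjusted p equals the Benjamini-Hochberg value of the p-values to within 3.6e-07. A call is an adjusted p under 0.05.

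Computed here (Python 3.11.15, pandas 2.3.3, numpy 2.4.6, scipy 1.17.1) were counts of calls, group levels implied by mean and fold change, the difference of both fold changes over the root of their summed squared SEs, and fold changes less a smooth trend on length and GC content of the longest GENCODE M21 transcript (99.35% of members matched). RefSeq names matched 12417 members by symbol and 640 by synonym. The trend step was tested on simulated data in which few genes changed, independently of length and GC content, and the difference step was not tested. In the data 40.7% of members were called and calls varied with both. That test therefore does not show how much real change the trend step removes here. Alternatives were an adjusted p of 0.01, minimum counts of 50 or none, p-values adjusted over members alone, centring, a bound of 0.5 log2 and trend removal.

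Members and the 61 gene lists were chosen with earlier results of these data known. Named genes are the 20 largest rises and falls, the 10 raised and 10 lowered with the largest mean count, per list up to 4 raised and 3 lowered with the smallest p and 2 not called with the largest mean count, the 6 best read of those under 1 in the E4 table, and the 5 least changed. Ranked names leave out histone, small RNA, Rpl, Rps, Gm, LOC and Rik genes. Other genes named, such as neighbours or members that complete a list, were chosen after their values were seen. Some genes that this rule names are not reported here.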

Additional observations from a re-analysis of the deposited data

Results flagged for a closer look

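Of the 40 genes with the largest changes in E1, 5 were called on the other side of E0 in the authors' deposited table for E4, with an adjusted p of the difference below 0.05. Nr4a2 stood at -0.54 and Nr4a3 at -0.99 in E4, after rises in E1. Il1r1 stood at 0.41, Pdzd2 at 1.29 and Grm2 at 0.95 in E4, after falls in E1. Both comparisons share the E0 libraries, and the difference was tested with SEs that ignore this.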

How the results depend on the processing

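The 3016 raised and 2310 lowered genes became 1220 and 272 when the change had to exceed 0.5 on the log2 scale, which raised the share of rises among calls from 56.6% to 81.8%, and the 20 lists in which most members were raised became 9. That setting asks for a larger change by construction. At an adjusted p of 0.01 the counts were 2460 and 1575. With the trend on transcript length and GC content removed they were 2530 and 2553 (49.8% of calls raised), or 2814 and 2097 without centring (57.3%), an alternative chosen after seeing the data. Csrnp3 then turned from 0.37 to -0.0798, or -0.0237 without centring, and Gria2 from 0.55 to -0.20, or -0.15. Without genes under a mean count of 10 in the E4 table, the raised genes numbered 2701. No paired analysis was possible because the tables hold comparisons and no value per library, and leaving out each replicate was not run for the same reason. Depth limits calls most in genes with a mean count of 10 to 50, where the median SE was 0.389.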
